A study of Mus musculus with 8 samples.

Results

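The keratin-associated proteins form a large family of hair shaft proteins, and all of their probe sets on the array were described here by family and by class. Members were the probe sets whose single gene symbol begins with Krtap, which gave 50 of the 22206 probe sets that were not control probe sets. They fell into 24 numbered families. By family number, 16 members were ultra-high sulfur (families 4, 5, 9 and 17), 18 were high sulfur (1, 3, 10 to 16, 24, 26 and 27) and 14 were high glycine-tyrosine (6, 7, 8 and 19 to 22). Krtap16-3 was counted as high sulfur by its number alone, which it shares with Krtap16-1 on another chromosome, so its class is uncertain. The family number gave no class to Krtap31-1 and Krtap31-2. The genes lie on mouse chromosomes 16 (23 members), 11 (20 members), 7 (5 members) and 10 (2 members). Krtap3-2 and Krtap3-3 had identical values on all 8 arrays, so the 50 members gave 49 distinct measurements. Of all probe sets, 261 shared all 8 values with another.

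RNA of skin from male C3H mice, an inbred strain, was hybridised to Clariom S Mouse arrays, 2 arrays in each of 4 groups. The groups were 1% minoxidil, 1% tieghemelin, 1% maslinic acid, and Milli-Q water as control. All mice were 7 weeks old, had been kept for 7 days before use, and were trimmed and depilated with cream before 20 days of daily topical treatment in groups of 8. Minoxidil is a drug used against hair loss, and maslinic acid is a pentacyclic triterpene acid found in olives. For minoxidil array 2 the labels disagree on the dose, with 1% in one field and 2% in another. The titles call both control arrays the control of tieghemelin and maslinic acid, and minoxidil was set against the same arrays. Which mouse or pool of mice each array came from is not given, so the p-values cover array-to-array spread that may be technical. With 2 arrays a group, precision is limited.

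Keratin-associated proteins are made late in the differentiation of the hair cortex and cuticle, the inner part and the scaly coat of the shaft. They form the matrix between the keratin filaments, which the cysteine-rich classes cross-link through disulfide bonds, whereas the high glycine-tyrosine class has little cysteine and many aromatic residues. Their genes are active in anagen, the growth phase of the hair cycle, and silent in the resting follicle. The homeobox factor HOXC13 and the TCF/LEF factors of the Wnt pathway are known regulators of hair shaft genes.

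The promoters of 4 members are shown because tieghemelin and maslinic acid differed from minoxidil in opposite directions for the pair from family 6 and in the same direction for the pair from family 31. All sequences are from RefSeq on GRCm38.p6, and each holds the 120 bases before the start of the gene, 5′ to 3′ on the gene's strand. The TATA motif TATAAA is in capitals. The stretch of Krtap6-1 lies at chr16:89031579-89031698 on the plus strand, and that of Krtap6-5 at chr16:89047900-89048019 on the minus strand. The stretch of Krtap31-1 lies at chr11:99907800-99907919 and that of Krtap31-2 at chr11:99936171-99936290, both on the plus strand.
Krtap6-1: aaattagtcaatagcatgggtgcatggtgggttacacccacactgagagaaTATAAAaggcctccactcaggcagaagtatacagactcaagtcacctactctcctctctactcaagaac
Krtap6-5: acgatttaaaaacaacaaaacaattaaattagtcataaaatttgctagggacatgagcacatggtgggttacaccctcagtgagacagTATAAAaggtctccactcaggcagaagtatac
Krtap31-1: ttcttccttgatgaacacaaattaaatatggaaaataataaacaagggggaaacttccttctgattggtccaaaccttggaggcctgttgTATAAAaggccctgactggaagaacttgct
Krtap31-2: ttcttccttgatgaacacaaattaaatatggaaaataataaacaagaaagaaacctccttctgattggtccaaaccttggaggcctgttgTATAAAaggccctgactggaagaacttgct
The 2 family 31 stretches were 96.7% identical. The 2 family 6 stretches, set on their TATAAA, were identical at 61 of 72 bases (84.7%). The motif began 69 bases before the annotated start of Krtap6-1 and 32 bases before that of Krtap6-5. Compared base by base from the gene start instead, as was done for family 31, the family 6 stretches shared 17.5% of the 120 bases. By that measure Krtap3-2 and Krtap3-3, the pair with identical array values, shared 40%.

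Of the 50 members, 46 had a promoter in the table. In the 250 bases before the start, TATAAA occurred on either strand in 36 of 46 members (78.3%), against 12.4% of all 32851 promoters. By class, 13 of 15 ultra-high sulfur, 12 of 16 high sulfur and 9 of 13 high glycine-tyrosine promoters held it. On the gene's strand and starting 40 to 20 bases before the start, it occurred in 26 members (56.5%), against 1.99% of all promoters. The TCF/LEF motif, searched on both strands as CTTTG followed by AA, AT, TA or TT, was found in 16 members (34.8%), against 14.8% of all promoters. The HOXC13 motif was searched on both strands as TTAATNAA, TTAATNAG, TTAATNGA, TTAATNGG, TTTATNAA, TTTATNAG, TTTATNGA and TTTATNGG, where N is any base. It was found in 24 members (52.2%), against 17.2% of all promoters. Some of these hits overlap TATAAA, and without such hits the shares were 47.8% and 14.6%. By class, 12 of 16 high sulfur, 7 of 15 ultra-high sulfur and 5 of 13 high glycine-tyrosine promoters held the HOXC13 motif. A match describes the letters of this window and shows no binding.

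In this family, as over all probe sets, control array 1 was unlike the remaining 7. Over the 49 distinct members, its log2 values correlated with those of the other arrays at 0.563 to 0.627, whereas pairs among the remaining 7 arrays gave 0.914 to 0.985. Over all probe sets the corresponding ranges were 0.518 to 0.538 and 0.901 to 0.966. The SD of the members on control array 1 was 1.23, against 1.77 to 1.94 on the others. It read below all other arrays for 34 of 50 members (68%), against 35.5% of all probe sets, and above all of them for 4 members, against 29.8% of all probe sets. By class these 34 were 13 of 16 ultra-high sulfur, 12 of 18 high sulfur, 7 of 14 high glycine-tyrosine and both family 31 members. What sets this array apart was not tested, and the differences of the family, its classes and the gene lists from control are therefore given with all 8 arrays and without control array 1. In the second case control array 2 stands alone, and its spread is taken from the treatment groups.

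**Figure D1:**
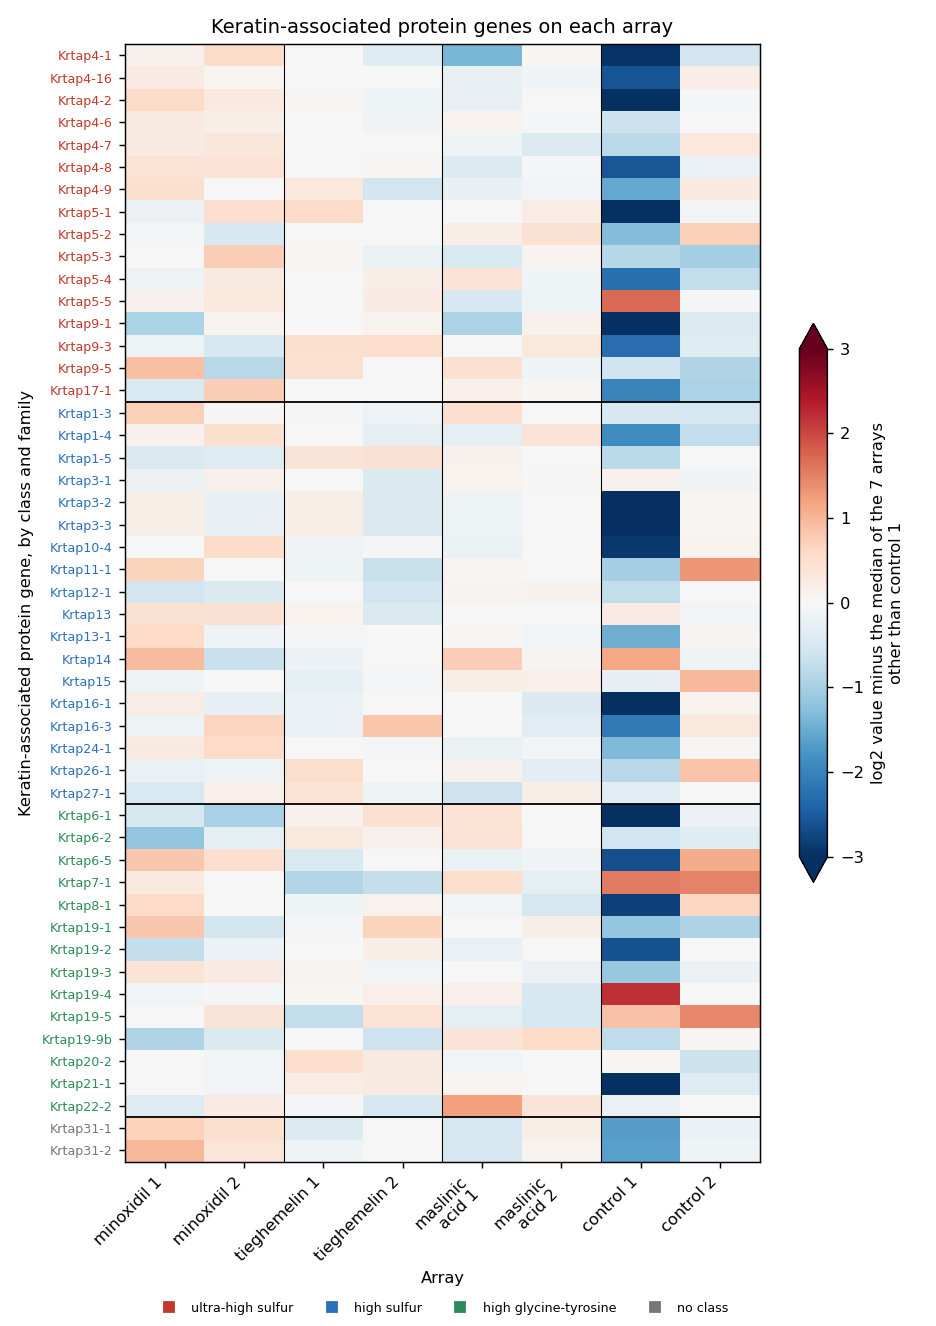
Each of the 50 keratin-associated protein genes (rows, ordered by class and family) on each of the 8 arrays (columns), as the log2 value minus the gene's median over the 7 arrays other than control 1, with colours ending at -3 and 3. Control 1 is below all other arrays for 34 of the 50 genes, while Krtap5-5, Krtap7-1, Krtap14 and Krtap19-4 are highest there.

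Most of the family read above background on every array. A value was called above background when it exceeded the median of the antigenomic probe sets of the same array, which match no mouse sequence. By this measure 44 and 46 members were above background with minoxidil, 47 and 47 with tieghemelin, 49 and 46 with maslinic acid, and 29 and 40 in control skin. In all, 37 members were above background on all 7 arrays other than control 1, 12 on some of them, and Krtap5-5 on none of them. These medians were 7.51 and 7.33 with minoxidil, 7.02 and 6.97 with tieghemelin, 6.96 and 7.08 with maslinic acid, and 7.75 and 7.61 in control skin. The calls therefore rest on thresholds that differ between groups. On every array the median of all probe sets (7.96 to 8.06) was also above the background median. Most probe sets of any kind thus pass this measure, and their exact share was not computed. Over the 7 arrays, the range of a member had a median of 1.11 log2 units, against 1.06 for all probe sets, and exceeded 1 in 29 members (58%), against 55.3% of all probe sets. The range was largest for Krtap7-1, Krtap19-5 and Krtap11-1 (2.37, 2.18 and 1.99) and smallest for Krtap4-6, Krtap4-16 and Krtap19-3 (0.38, 0.48 and 0.59).

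Against control, the family read higher in all 3 treatments with all 8 arrays, and this shift was not seen without control array 1. With minoxidil 39 members were higher and 11 lower, with a median log2 difference of 0.96, where a difference of 1 is a 2-fold change. The median of all probe sets was 0.06, and 53.3% of them were above 0. With tieghemelin 40 were higher and 10 lower (median 0.71, against 0.05 for all probe sets, of which 52.4% were above 0). With maslinic acid 39 were higher and 11 lower (median 0.74, against 0.05 for all probe sets, of which 52.7% were above 0). When control array 1 was left out, 25 members were higher and 25 lower with minoxidil (median 0.015), 26 and 24 with tieghemelin (median 0.005), and 23 and 27 with maslinic acid (median -0.048). The shares of all probe sets above 0 were then 53.4%, 51.2% and 50.5%. When control array 2 was left out instead, the medians were 1.59, 1.36 and 1.32. The 3 comparisons share the control arrays, so they are given side by side and not as repeats of one another.

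No member had a Benjamini-Hochberg adjusted p under 0.05 in limma's model in these 3 comparisons with all 8 arrays, where 0% of all probe sets had one. There was none without control array 1 either, where 0.0045%, 0.356% and 0.0045% of all probe sets had one with minoxidil, tieghemelin and maslinic acid. When control array 2 was left out, control array 1 stood alone, and many more calls were made among the members and over all probe sets alike. The study itself took a fold of at least 1.7 with an unadjusted p of at most 0.05. At these thresholds minoxidil had 12 members (24%), against a background of 11.3% of all probe sets. Of these, 11 were higher (background 6.98%) and 1 lower (4.29%). Tieghemelin had 9 (18%, background 11.7%), with 7 higher (7.02%) and 2 lower (4.73%). Maslinic acid had 7 (14%, background 10.8%), with 5 higher (6.39%) and 2 lower (4.45%). The counts at an unadjusted p under 0.05 alone were the same 12, 9 and 7. When control array 1 was left out, minoxidil had 9 members (18%, 3 higher and 6 lower), against a background of 12.9%. Tieghemelin then had 8 (16%, 3 higher and 5 lower, background 13.7%) and maslinic acid 9 (18%, 2 higher and 7 lower, background 12.8%). Calls were thus mostly higher with all 8 arrays and mostly lower without control array 1. By arrays that do not overlap, 16 members were above both control arrays and 3 below with minoxidil, against 20.6% and 15.6% of all probe sets. With tieghemelin they were 19 and 2, against 22.2% and 18.4%, and with maslinic acid 16 and 3, against 20.8% and 17.9%. In whole skin, fewer hair shaft cells and less transcript per cell cannot be told apart.

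Markers of other cell types also differed in these comparisons. All 12 skeletal muscle markers were lower in each treatment with all 8 arrays, with medians of -2.27 with minoxidil, -4.79 with tieghemelin and -2.93 with maslinic acid (-3.43, -5.74 and -3.93 without control array 1). The median level of that list was 11.02 and 10.76 under minoxidil, 9.20 and 8.80 under tieghemelin, and 12.12 and 9.44 under maslinic acid, against 12.73 and 14.47 in control skin. For 8 melanocyte genes the median level was 8.48 and 8.10 under minoxidil, 7.98 and 7.76 under tieghemelin, and 7.80 and 7.86 under maslinic acid, against 7.01 and 7.56 in control skin. For 9 proliferation genes it was 8.35 and 7.74 under minoxidil, 8.36 and 8.28 under tieghemelin, and 8.39 and 8.30 under maslinic acid, against 7.02 and 8.08 in control skin. The part of these cell types in the differences was not tested.

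The ultra-high sulfur class had the highest medians against control with all 8 arrays. They were 1.32 with minoxidil (15 of 16 higher), 1.29 with tieghemelin (15 of 16) and 1.06 with maslinic acid (14 of 16). The high sulfur class had medians of 0.62, 0.50 and 0.49, and the high glycine-tyrosine class had 0.55, 0.66 and 0.74, in the same order of treatments. After quantile normalization the high glycine-tyrosine median under minoxidil was 0.04, with 7 members on each side. Without control array 1 the ultra-high sulfur medians were 0.26, 0.28 and -0.02, those of high sulfur -0.08, -0.11 and -0.14, and those of high glycine-tyrosine -0.36, 0.09 and 0.23. The differences between classes were not tested.

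**Figure D2:**
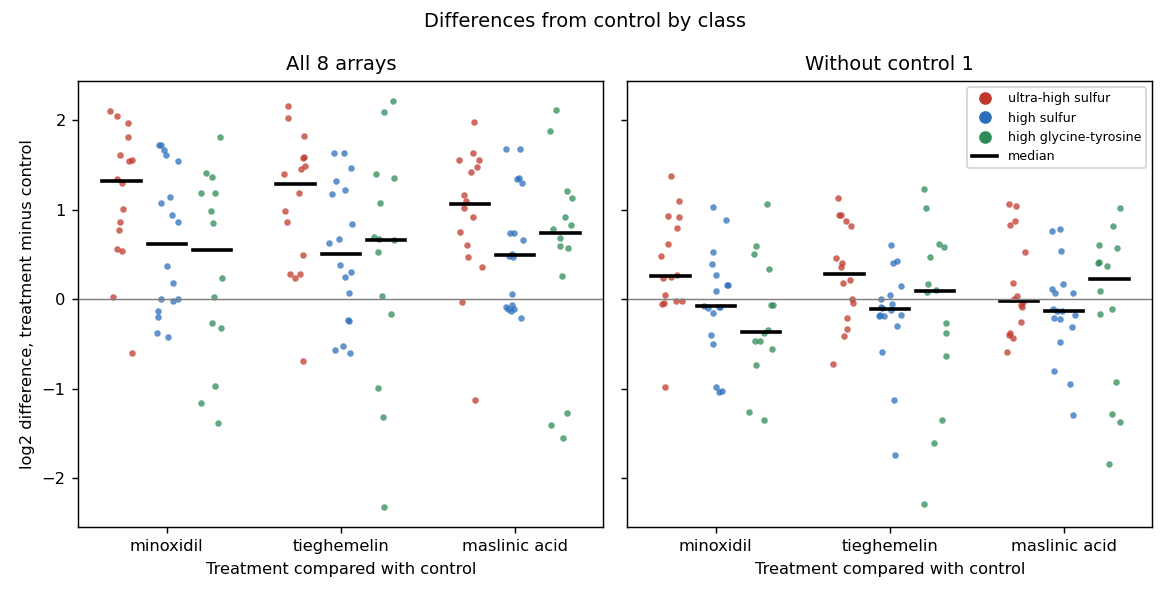
Log2 difference between each treatment and control for each keratin-associated protein gene of the 3 classes (family 31 is not drawn), with all 8 arrays (left) and without control 1 (right). Each point is a gene and each bar a class median, which for the ultra-high sulfur class is 1.32, 1.29 and 1.06 on the left and 0.26, 0.28 and -0.02 on the right.

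Family 4, ultra-high sulfur proteins of the hair cortex in humans, had 7 members in a row on chromosome 11. All 7 were lower with tieghemelin and with maslinic acid than with minoxidil. The medians were -0.36 and -0.55, and all 7 were still lower after quantile normalization (-0.28 and -0.39) and after a shift to a common median. The SE of a difference between 2 treatments ran from 0.37 for Krtap4-6 to 0.81 for Krtap4-2 with all 8 arrays. Without control array 1 it ran from 0.28 for Krtap4-6 to 0.43 for Krtap4-1. Whether members of this family share probe signal was not tested. Krtap4-8 read 11.82 and 11.85 under tieghemelin and 11.41 and 11.77 under maslinic acid, against 12.25 and 12.24 under minoxidil. Its control arrays read 9.24 and 11.62. Both minoxidil arrays were above every other array. Krtap4-2 averaged 11.19 ± 0.12 with tieghemelin and 11.11 ± 0.16 with maslinic acid, against 11.66 ± 0.20 with minoxidil, and 9.69 ± 2.10 in control skin (SD, n = 2 each). Krtap4-1 read 9.20 and 8.85 under tieghemelin and 7.83 and 9.25 under maslinic acid, against 9.34 and 9.76 under minoxidil, and 6.25 and 8.62 in control skin. In both of these genes, too, the minoxidil arrays were above all others.

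The other family 4 members were lower than minoxidil as well. Krtap4-6, the member with the smallest range, read 7.43 and 7.33 under tieghemelin and 7.53 and 7.39 under maslinic acid, against 7.71 and 7.62 under minoxidil, and 6.78 and 7.42 in control skin. It lay near background throughout. Krtap4-16 read 10.27 and 10.25 under tieghemelin and 10.04 and 10.15 under maslinic acid, against 10.52 and 10.33 under minoxidil, and 7.68 and 10.48 in control skin. Krtap4-7 and Krtap4-9 differed from minoxidil by -0.31 and -0.36 with tieghemelin and by -0.57 and -0.39 with maslinic acid. On control array 2 they read 10.03 and 10.16, within the range of their minoxidil arrays. The arrays did not overlap for 6 of the 7 genes with tieghemelin and for all 7 with maslinic acid, where non-overlapping lower values made up 23.6% and 23.5% of all probe sets. Both comparisons use the same minoxidil arrays.

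Against control, Krtap4-1, Krtap4-2 and Krtap4-8 met the study's thresholds with minoxidil. They differed by 2.11 (SE 0.77), 1.97 (SE 0.81) and 1.81 (SE 0.68), with limma adjusted p values of 0.440, 0.442 and 0.440. Without control array 1 these differences were 0.92, 0.48 and 0.62, and none met the thresholds. On control array 1 Krtap4-1 was below background.

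Family 9, also of the cortex in humans, differed from minoxidil the other way. Its 3 members were higher with tieghemelin (median 0.49) and with maslinic acid (median 0.14), also after quantile normalization (0.55 and 0.15) and a common median. Krtap9-3 read 10.33 and 10.37 under tieghemelin and 9.85 and 10.16 under maslinic acid, against 9.70 and 9.36 under minoxidil, and 7.57 and 9.48 in control skin. Both compounds were thus above minoxidil and control without overlap. The difference from minoxidil was 0.82 with tieghemelin (SE 0.59 with all arrays, 0.30 without control array 1), and 0.47 with maslinic acid. Against control it was 1.83 with tieghemelin (0.87 without control array 1) and 1.48 with maslinic acid (0.52 without control array 1). Krtap9-1 read 11.17 and 11.29 with tieghemelin, 10.22 and 11.30 with maslinic acid, 10.21 and 11.27 with minoxidil, and 7.64 and 10.77 in control skin, and its treatment groups overlapped. Krtap9-5 was below background on control array 2, so without control array 1 it was at least 1.76-fold higher with minoxidil, at least 2.03-fold with tieghemelin and at least 1.94-fold with maslinic acid. Krtap9-5 read 9.30 and 7.56 under minoxidil, 8.87 and 8.40 under tieghemelin, and 8.87 and 8.27 under maslinic acid, against 7.81 and 7.50 in control skin. Control array 1 was above background here. With all 8 arrays the difference from control with minoxidil was 0.77, and the arrays overlapped.

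Family 5, cuticle proteins in human hair, lies on chromosome 7. Krtap5-1 read 13.64 and 14.31 under minoxidil, 14.38 and 13.80 under tieghemelin, and 13.79 and 14.03 under maslinic acid, against 10.12 and 13.73 in control skin. Apart from control array 1, its range was 0.74. Krtap5-4 read 11.14 and 11.55 under minoxidil, 11.29 and 11.47 under tieghemelin, and 11.69 and 11.16 under maslinic acid, against 9.03 and 10.56 in control skin. It was above both control arrays in every treatment, by 1.55, 1.58 and 1.63 (adjusted p of 0.440, 0.410 and 0.448), and by 0.79, 0.82 and 0.87 without control array 1. Krtap5-3 had 2 control values that were alike. It read 7.94 and 8.67 under minoxidil, 8.00 and 7.75 under tieghemelin, and 7.47 and 8.05 under maslinic acid, against 7.08 and 6.93 in control skin. Both control values were below background, so minoxidil was at least 1.54-fold higher (adjusted p 0.440), and at least 1.61-fold higher without control array 1. Krtap5-2 was lower without control array 1, with log2 differences of -0.98, -0.72 and -0.40, and Krtap5-5 was above background on control array 1 alone.

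Krtap17-1, a cuticle protein in human hair, read 9.56 and 10.76 under minoxidil, 10.01 and 9.99 under tieghemelin, and 10.16 and 10.04 under maslinic acid, against 8.03 and 9.06 in control skin. All 6 treatment arrays were above both control arrays. The differences were 1.62, 1.46 and 1.56 (SE 0.51), and 1.10, 0.94 and 1.04 without control array 1, with adjusted p values of 0.440, 0.414 and 0.448, and of 0.361, 0.414 and 0.390. Over all alternatives the adjusted p with minoxidil lay between 0.00570 and 0.841. Without minoxidil array 2 the minoxidil difference was 1.01, and without minoxidil array 1 it was 2.22.

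In the high sulfur class, all 3 members of family 1, cortex proteins in humans, were higher than control in each treatment with all 8 arrays, except for 1 member with minoxidil after quantile normalization or a common median. Krtap1-4 read 9.84 and 10.18 under minoxidil, 9.70 and 9.44 under tieghemelin, and 9.43 and 10.09 under maslinic acid, against 7.83 and 8.97 in control skin. It was above both control arrays in all treatments, by 1.61, 1.17 and 1.36, and by 1.03, 0.60 and 0.79 without control array 1. Krtap1-5 read 9.98 and 10.04 under tieghemelin and 9.72 and 9.58 under maslinic acid, against 9.16 and 9.20 under minoxidil, and 8.77 and 9.58 in control skin. Tieghemelin was above all other arrays, by 0.83 over minoxidil (SE 0.28 without control array 1). Krtap1-3, for which both control arrays were below background, was at least 1.48-fold higher with minoxidil, at least 1.06-fold with tieghemelin and at least 1.36-fold with maslinic acid. When control array 1 was left out these bounds were 1.55, 1.11 and 1.43.

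For Krtap3-3 and Krtap10-4, differences from control of over 1 log2 unit were seen with control array 1 and not without it. Krtap3-3, whose probe set cannot be told from that of Krtap3-2, read 10.68 and 10.28 under minoxidil, 10.72 and 10.07 under tieghemelin, and 10.35 and 10.52 under maslinic acid, against 6.95 and 10.57 in control skin. Its differences from control were 1.73, 1.64 and 1.67, and -0.08, -0.17 and -0.14 without control array 1. Krtap10-4, of a family expressed in the human hair cuticle, read 10.38 and 10.93 under minoxidil, 10.27 and 10.34 under tieghemelin, and 10.18 and 10.39 under maslinic acid, against 7.48 and 10.49 in control skin. Control array 2 lay inside the treatment values for both genes. Krtap3-1 had no such gap, with 8.03 and 8.35 under minoxidil, 8.20 and 7.76 under tieghemelin, and 8.31 and 8.22 under maslinic acid, against 8.32 and 8.10 in control skin. Krtap16-1 on chromosome 11 and Krtap16-3 on chromosome 16 share a family number. Among the members, Krtap16-3 lies between Krtap19-9b and Krtap22-2, which are high glycine-tyrosine by number. Whether Krtap16-1 and Krtap16-3 belong to the same family or class was not tested. Both had a low control array 1 (6.12 and 10.36) and a control array 2 (9.42 and 12.80) inside the range of the treatments. Their differences from control array 2 lay between -0.48 and 0.00.

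The high sulfur genes of chromosome 16 included those that were lower than control array 2. Krtap11-1, of the cortex in humans, read 10.43 and 9.76 under minoxidil, 9.59 and 9.09 under tieghemelin, and 9.81 and 9.75 under maslinic acid, against 8.75 and 11.08 in control skin. Control array 2 was the highest and control array 1 the lowest of its 8 values. The differences were 0.18, -0.57 and -0.14 with all arrays, and -0.99, -1.74 and -1.30 without control array 1, where tieghemelin had an adjusted p of 0.118 (0.118 to 0.937 over the alternatives). Krtap15 read 7.25 and 7.38 under minoxidil, 7.08 and 7.35 under tieghemelin, and 7.55 and 7.52 under maslinic acid, against 7.14 and 8.35 in control skin. All of its values lay within 1 log2 unit of the background median of their array. Krtap26-1 read 8.91 and 8.96 under minoxidil, 9.64 and 9.12 under tieghemelin, and 9.24 and 8.79 under maslinic acid, against 8.29 and 9.97 in control skin, again with the control arrays at both ends.

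For the remaining high sulfur members, control array 2 lay within the range of the treatment arrays. Control array 1 was below all other arrays for Krtap24-1, Krtap12-1 and Krtap13-1. With minoxidil and all 8 arrays, Krtap24-1, Krtap13-1 and Krtap13 differed from control by 1.08, 0.94 and 0.37. Krtap12-1, Krtap14 and Krtap27-1 differed by -0.13, -0.38 and 0.005. Krtap24-1 read 9.08 and 9.38 under minoxidil, 8.80 and 8.75 under tieghemelin, and 8.59 and 8.72 under maslinic acid, against 7.47 and 8.83 in control skin. It differed from minoxidil by -0.45 with tieghemelin and -0.57 with maslinic acid, without overlap. Krtap12-1 read 7.78 and 7.92 under minoxidil, 8.34 and 7.76 under tieghemelin, and 8.43 and 8.48 under maslinic acid, against 7.61 and 8.35 in control skin. Maslinic acid was above minoxidil there by 0.61. Krtap13-1 read 9.55 and 8.86 under minoxidil, 8.92 and 8.96 under tieghemelin, and 8.99 and 8.87 under maslinic acid, against 7.49 and 9.04 in control skin. Krtap13 differed from minoxidil by -0.61 with tieghemelin and -0.46 with maslinic acid. It lay near background, with 7.56 and 7.56 under minoxidil, 7.22 and 6.67 under tieghemelin, and 7.09 and 7.10 under maslinic acid. Tieghemelin array 2 and both control arrays (7.35 and 7.03) were below background. Krtap14, first described from mammary gland and hair follicle in mice, read 8.46 and 6.83 under minoxidil, 7.33 and 7.51 under tieghemelin, and 8.24 and 7.59 under maslinic acid, against 8.67 and 7.37 in control skin. Its minoxidil arrays lay 1.62 apart. Krtap27-1 read 7.66 and 8.27 under minoxidil, 8.54 and 8.00 under tieghemelin, and 7.49 and 8.30 under maslinic acid, against 7.80 and 8.12 in control skin, with all groups overlapping.

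In the high glycine-tyrosine class, family 6 divided. Krtap6-1 read 12.06 and 12.38 under tieghemelin and 12.32 and 11.92 under maslinic acid, against 11.45 and 10.94 under minoxidil, and 8.26 and 11.75 in control skin. Both compounds were above minoxidil without overlap, by 1.03 and 0.93. Krtap6-5, whose promoter is shown beside that of Krtap6-1, read 14.05 and 14.50 under tieghemelin and 14.31 and 14.36 under maslinic acid, against 15.30 and 14.99 under minoxidil, and 11.86 and 15.62 in control skin. Both compounds were below minoxidil without overlap, with log2 differences of -0.88 and -0.81. Krtap6-2 read 7.25 and 7.06 under tieghemelin and 7.36 and 6.93 under maslinic acid, against 5.74 and 6.65 under minoxidil, and 6.34 and 6.57 in control skin. The minoxidil and control values were below background. The tieghemelin and maslinic acid means (7.16 and 7.14) also lay below the background medians of the minoxidil and control arrays. Krtap6-2 therefore has no fold, and its differences from minoxidil were 0.96 and 0.95. The SE of these comparisons was 0.94 for Krtap6-1 and 1.00 for Krtap6-5 with all 8 arrays, and 0.32 and 0.30 without control array 1. All 3 genes met the study's thresholds against minoxidil in the second case only, with adjusted p values between 0.260 and 0.318, and up to 1 under other alternatives. The directions held after quantile normalization and a common median for 2 of 3 genes higher and 1 lower.

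Against control, the differences of Krtap6-5 with tieghemelin and maslinic acid changed sign without control array 1. They were 0.53 and 0.59 with all 8 arrays, and -1.35 and -1.28 without control array 1. With minoxidil the difference was 1.41 with all 8 arrays, and both minoxidil arrays were below control array 2. Krtap6-1 differed from control by 2.21 with tieghemelin (SE 0.94, adjusted p 0.424), and by 0.47 without control array 1. Near-identical members of a family may share probe signal, and this was not tested.

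Krtap7-1, a protein of the sheep and human hair cortex, was lower than control in every treatment, and its control arrays were alike. It read 7.42 and 7.14 under minoxidil, 6.26 and 6.42 under tieghemelin, and 7.66 and 6.84 under maslinic acid, against 8.69 and 8.63 in control skin. All 6 treatment arrays were below both control arrays. With tieghemelin it averaged 6.34 ± 0.11, against 8.66 ± 0.04 in control skin (SD, n = 2 each). No tieghemelin or minoxidil array was above background, so the gene was at least 3.17-fold lower with tieghemelin (log2 difference -2.32, SE 0.39, adjusted p 0.364) and at least 2.36-fold lower with minoxidil (-1.38, adjusted p 0.440). With maslinic acid, above background on 1 of 2 arrays, it was 2.65-fold lower (-1.41, adjusted p 0.448). Without control array 1 the differences were -2.29, -1.35 and -1.38 for tieghemelin, minoxidil and maslinic acid, and the adjusted p with tieghemelin was 0.0556. Over all alternatives that adjusted p lay between 0.00179 (without control array 2) and 0.861 (without tieghemelin array 1). Tieghemelin was also lower than maslinic acid, by at least 1.20-fold (-0.91), at the study's thresholds. Against minoxidil the difference with tieghemelin was -0.94, with both groups below background.

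Family 19 held genes that differed from control in opposite directions. Krtap19-5 read 7.28 and 7.67 under minoxidil, 6.55 and 7.71 under tieghemelin, and 6.99 and 6.81 under maslinic acid, against 8.17 and 8.74 in control skin. Both control arrays were above all 6 treatment arrays, and 1 of 2 arrays in each treatment was above background. The differences were -0.98, -1.32 and -1.56 (adjusted p of 0.443, 0.414 and 0.448), and -1.26, -1.60 and -1.84 without control array 1. Krtap19-1 read 12.87 and 11.51 under minoxidil, 11.99 and 12.73 under tieghemelin, and 12.06 and 12.22 under maslinic acid, against 10.89 and 11.12 in control skin. Here both control arrays were below all treatment arrays. The differences were 1.18, 1.35 and 1.14, and 1.07, 1.23 and 1.02 without control array 1. Krtap19-9b read 8.65 and 8.03 under tieghemelin and 9.04 and 9.23 under maslinic acid, against 7.75 and 8.23 under minoxidil, and 7.90 and 8.72 in control skin. Maslinic acid was above all other arrays, by 1.14 over minoxidil (SE 0.44, adjusted p 1.00).

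Of the other family 19 members, Krtap19-3 varied little, with 10.39 and 10.21 under minoxidil, 10.07 and 9.88 under tieghemelin, and 9.97 and 9.80 under maslinic acid, against 8.83 and 9.80 in control skin. It met the study's thresholds with minoxidil (0.99), and differed by 0.50 without control array 1. Krtap19-4 had its highest value, 10.27, on control array 1, and lay between 7.58 and 8.22 on the other 7. Krtap19-2 differed from minoxidil by 0.55 with tieghemelin and 0.36 with maslinic acid.

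Among the single high glycine-tyrosine members, Krtap21-1 read 9.69 and 9.60 under minoxidil, 9.91 and 9.95 under tieghemelin, and 9.75 and 9.67 under maslinic acid, against 6.36 and 9.31 in control skin. It differed from control by 2.09 with tieghemelin and 1.88 with maslinic acid, and by 0.62 and 0.40 without control array 1. All 6 treatment arrays were above both control arrays. Krtap20-2 read 9.15 and 9.06 under minoxidil, 9.66 and 9.41 under tieghemelin, and 9.08 and 9.16 under maslinic acid, against 9.21 and 8.51 in control skin. Tieghemelin was above all other arrays. Krtap8-1, of the cortex in humans and sheep, read 10.40 and 9.83 under minoxidil, 9.71 and 9.93 under tieghemelin, and 9.76 and 9.31 under maslinic acid, against 7.04 and 10.46 in control skin. Control array 2 was its highest value. Krtap22-2 read 7.53 and 7.11 with tieghemelin, against 8.83 and 7.98 with maslinic acid, 7.19 and 7.85 with minoxidil, and 7.39 and 7.59 in control skin. Maslinic acid was above all other arrays, and tieghemelin was lower than it (log2 difference -1.08, SE 0.44, adjusted p 1.00).

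**Figure D3:**
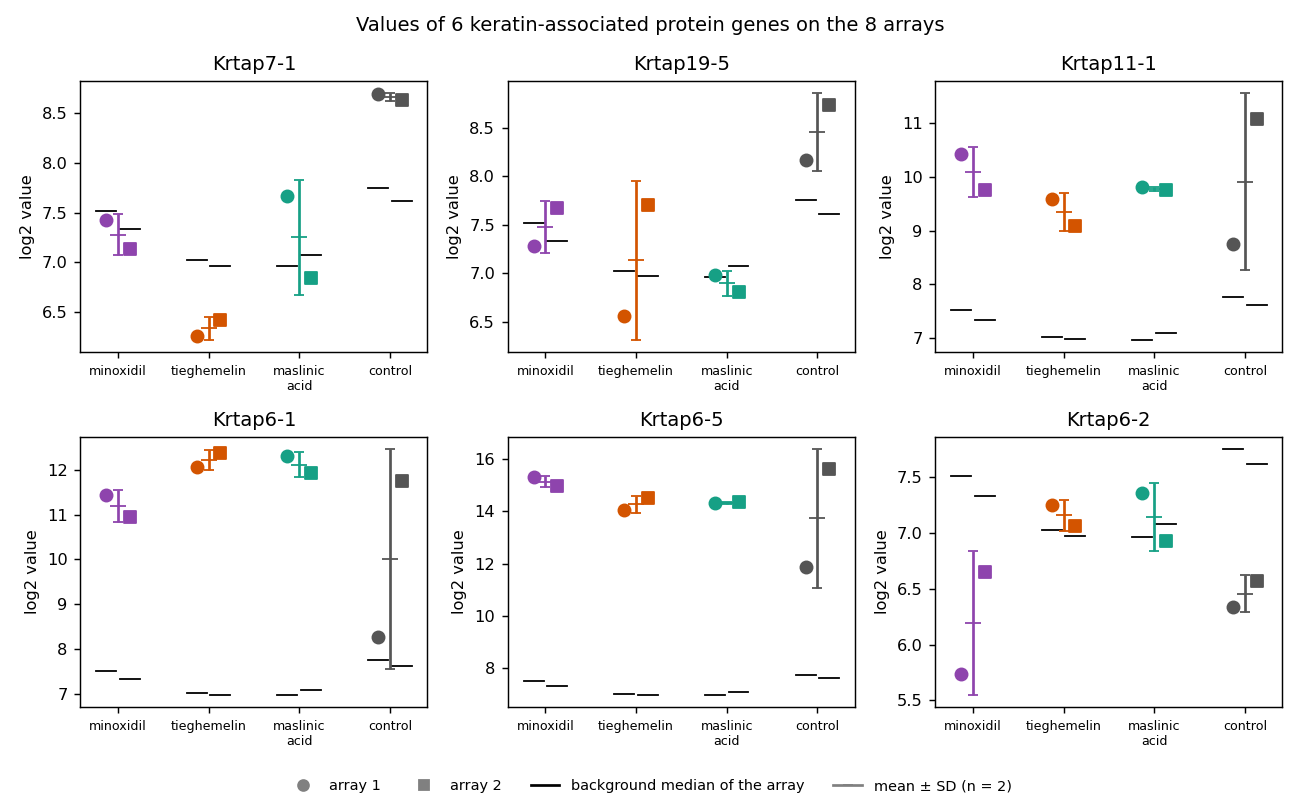
Log2 values of 6 keratin-associated protein genes on each of the 2 arrays a group (circles array 1, squares array 2), with the mean ± SD (n = 2) and the background median of each array as a black line. Both control arrays exceed all others for Krtap7-1 and Krtap19-5, the control arrays are at both ends for Krtap11-1, and tieghemelin and maslinic acid lie above minoxidil for Krtap6-1 and Krtap6-2 and below it for Krtap6-5.

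Family 31 behaved alike in both members. Krtap31-1 read 7.24 and 7.64 under tieghemelin and 7.13 and 7.81 under maslinic acid, against 8.34 and 8.11 under minoxidil, and 5.98 and 7.46 in control skin. Krtap31-2 read 9.37 and 9.50 under tieghemelin and 8.99 and 9.57 under maslinic acid, against 10.50 and 9.86 under minoxidil, and 7.86 and 9.37 in control skin. In both genes the minoxidil arrays were above all 6 others. They differed from minoxidil by -0.78 and -0.74 with tieghemelin, and by -0.75 and -0.90 with maslinic acid, also after quantile normalization and a common median (medians between -0.82 and -0.73). Against control both met the study's thresholds with minoxidil (adjusted p 0.440 for each). Krtap31-1, below background on both control arrays, was at least 1.46-fold higher with minoxidil, and at least 1.53-fold without control array 1. Krtap31-2 was 2.96-fold higher, with a log2 difference of 0.81 without control array 1.

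Over the whole family, more members were lower than higher in both compounds against minoxidil. With tieghemelin 19 members were higher and 31 lower than with minoxidil (median -0.16, all probe sets -0.03, of which 52.8% were below 0). With maslinic acid 18 were higher and 32 lower (median -0.090, all probe sets -0.03, of which 52.3% were below 0). No member had an adjusted p under 0.05 in limma's model in either comparison, with or without control array 1, nor had any other probe set (0%). At the study's thresholds, and at an unadjusted p under 0.05, there was 1 member (2%) with tieghemelin, Krtap7-1, against a background of 3.3%, and 1 (2%) with maslinic acid, Krtap19-9b, against 3.6%. The gap between the control arrays enters the shared estimate of spread. When control array 1 was left out, 7 members (14%) met the thresholds in each comparison, against 10.4% and 11.1%. With tieghemelin these were Krtap1-5, Krtap6-1, Krtap6-2 and Krtap9-3, higher, and Krtap6-5, Krtap7-1 and Krtap31-1, lower. With maslinic acid they were Krtap6-1, Krtap6-2, Krtap19-9b and Krtap22-2, higher, and Krtap4-1, Krtap6-5 and Krtap31-2, lower. The arrays did not overlap for 27 members with tieghemelin, against 43.8% of all probe sets, and for 25 with maslinic acid, against 43.6%.

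On chromosome 11 lower members outnumbered higher ones against minoxidil, whereas chromosome 16 held similar numbers of each. With tieghemelin 4 of its 20 members were higher and 16 lower than with minoxidil (median -0.25), and with maslinic acid 5 were higher and 15 lower (median -0.20). On chromosome 16 the counts were 11 higher and 12 lower with tieghemelin (median -0.10), and 10 and 13 with maslinic acid (median -0.05). Among the members, the 7 genes of family 4 lie next to one another, with Krtap9-3 before and Krtap9-1 after them, and Krtap6-1 is the neighbour of Krtap6-5. Against control, the minoxidil medians were 1.52 on chromosome 11 and 0.24 on chromosome 16, and 0.17 and -0.15 without control array 1.

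**Figure D4:**
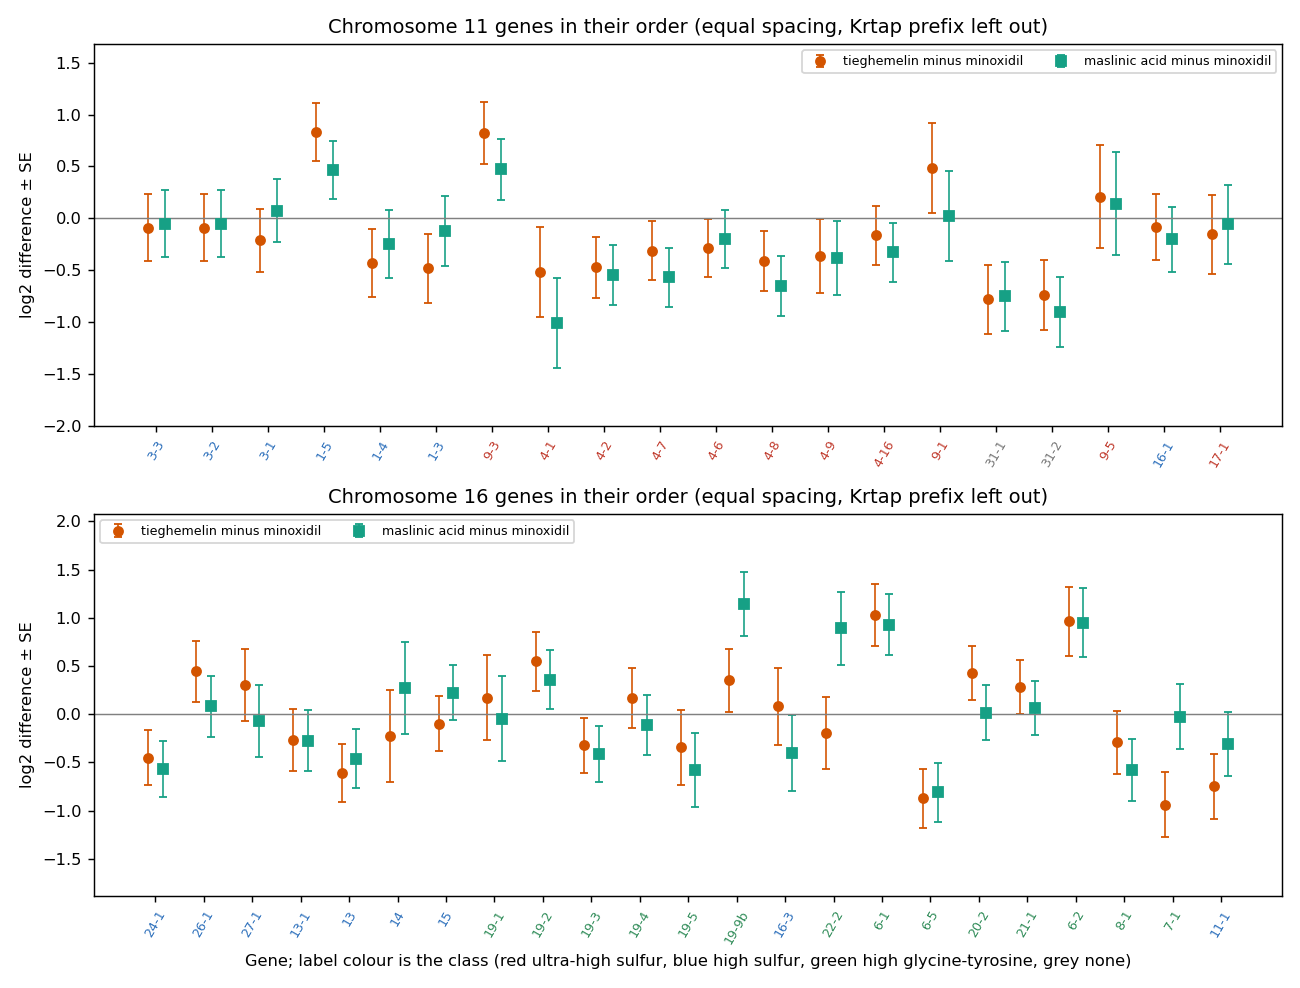
Log2 difference from minoxidil with tieghemelin (circles) and maslinic acid (squares) for the genes of chromosomes 11 (top) and 16 (bottom) in their order, equally spaced, with SE bars from the fit without control 1. The 7 genes of family 4 and the 2 of family 31 lie below 0, Krtap9-3 and Krtap1-5 above, and Krtap6-1 and Krtap6-5 on opposite sides.

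Tieghemelin and maslinic acid, both applied at 1%, were also compared with each other. Tieghemelin was higher than maslinic acid for 31 members and lower for 19, with a median of 0.08 (all probe sets 0.01). Of all probe sets 50.7% were higher. At the study's thresholds, and at an unadjusted p under 0.05, 2 members (4%) were lower with tieghemelin, Krtap7-1 and Krtap22-2, against a background of 0.306%. No member and no other probe set (0%) had an adjusted p under 0.05 in limma's model, with or without control array 1. With control array 1 left out, Krtap19-9b was added (3 members, 6%, against 1.56%). For Krtap6-1, Krtap6-2 and Krtap6-5 the compounds differed by 0.10, 0.01 and -0.06, less than the SE of each. The arrays did not overlap for 20 members, against 30.6% of all probe sets.

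Other genes of the hair shaft were read from gene lists. Of 9 type I hair keratins, partners of these proteins in the shaft, 4 and 5 were above background with minoxidil, 6 and 6 with tieghemelin, 7 and 6 with maslinic acid, and 4 and 6 in control skin. Against control 3 of 9 were higher with minoxidil (median -0.32), 5 with tieghemelin (0.29) and 6 with maslinic acid (0.16), and 1, 3 and 2 met the study's thresholds. The medians were -0.01, 0.44 and 0.28 when control array 1 was left out. Krt39 read 9.58 and 9.88 under minoxidil, 9.55 and 9.31 under tieghemelin, and 9.39 and 9.22 under maslinic acid, against 7.75 and 8.38 in control skin. Its differences were 1.66, 1.37 and 1.24, and 1.34, 1.05 and 0.92 without control array 1. Krt40 read 8.59 and 8.47 under minoxidil, 8.85 and 9.31 under tieghemelin, and 9.71 and 9.91 under maslinic acid, against 8.41 and 7.77 in control skin. Maslinic acid was above all other arrays, by 1.27 over minoxidil and 1.72 over control (adjusted p 1.00 and 0.448). Krt35 read 7.41 and 7.19 under minoxidil, 6.90 and 7.04 under tieghemelin, and 7.99 and 7.49 under maslinic acid, against 6.75 and 8.61 in control skin. It met the thresholds only without control array 1, at least 2.29-fold lower with minoxidil and with log2 differences of -1.64 with tieghemelin and -0.88 with maslinic acid. Krt32, the third gene at the thresholds with tieghemelin, was below background in tieghemelin and control skin. Of the 7 type II hair keratins 3 were measured, and none met the thresholds with all 8 arrays.

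Of 11 measured hair shaft transcription factors, 2 or 3 were above background on each array, and 5, 3 and 5 were higher than control with minoxidil, tieghemelin and maslinic acid (medians -0.19, -0.51 and -0.02, and -0.15, -0.19 and 0.09 without control array 1). Vdr, the vitamin D receptor, read 10.48 and 10.95 under minoxidil, 10.49 and 10.24 under tieghemelin, and 10.30 and 10.31 under maslinic acid, against 7.46 and 10.18 in control skin. It met the thresholds with minoxidil with all 8 arrays (1.89) and not without control array 1 (0.53). Foxn1 with minoxidil and Foxq1 with maslinic acid, both below background, likewise met them with all 8 arrays only. Lef1, a TCF/LEF factor of the hair matrix, met them without control array 1 only, at least 1.68-fold lower with tieghemelin and at least 1.65-fold lower with maslinic acid.

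Among 12 cross-linking enzymes and partners, 6 were higher and 6 lower than control in each treatment (medians -0.05, 0.17 and 0.09, and -0.24, -0.01 and -0.07 without control array 1). Tgm1, a transglutaminase, read 9.48 and 9.68 under tieghemelin and 9.26 and 8.98 under maslinic acid, against 8.37 and 8.47 under minoxidil, and 7.02 and 8.46 in control skin. Tieghemelin was above all other arrays, by 1.16 over minoxidil (SE 0.49) and 1.84 over control (1.12 without control array 1). In the inner root sheath list, which marks the sheath around the shaft, 5 of 10 genes were higher than control with minoxidil (median -0.43), 5 with tieghemelin (0.10) and 6 with maslinic acid (0.06). Without control array 1 these medians were -1.02, -0.47 and -0.29.

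Lists for other skin cells had medians nearer to 0 than skeletal muscle, in the order minoxidil, tieghemelin and maslinic acid against control with all 8 arrays. They were -0.23, -0.45 and -0.17 for the companion layer and outer root sheath, -0.16, -0.45 and -0.34 for the epidermis, and -0.16, -0.12 and -0.28 for the sebaceous gland. For adipocytes they were -0.36, -0.59 and -0.55, and for dermal fibroblasts -0.97, -0.56 and -0.28. For immune cells they were 0.09, 0.02 and 0.01, and for endothelium 0.48, 0.34 and 0.31. None of these was as far from 0 as the muscle medians. The melanocyte medians were 0.67, 0.48 and 0.48, and those of proliferation 0.17, 0.26 and 0.43. When control array 1 was left out, the medians of these other skin cells furthest from 0 were those of the companion layer and outer root sheath (-0.78, -1.03 and -0.80) and of dermal fibroblasts (-0.74, -0.71 and -0.81). Epidermis then had -0.46, -0.63 and -0.44, sebaceous gland -0.12, 0.07 and -0.25, and adipocytes -0.36, -0.01 and -0.11. Immune cells had -0.15, -0.16 and -0.17, and endothelium had 0.44, 0.35 and 0.52. These, too, were nearer to 0 than the muscle medians. For melanocytes they were 0.52, 0.36 and 0.27, and for proliferation 0.18, 0.09 and 0.06.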

How the data were processed

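The deposited values are log2 expression values per probe set, 1 column for each of the 8 arrays. Per the submitters' processing notes and the series' design text, they came from Affymetrix Expression Console, RMA and Transcriptome Analysis Console 4.0.1. That the scale is log2 was read from the deposited values, and the genome build is not given in the sources used here. From these values, 6640 control probe sets were left out, and 22206 were fitted with limma 3.58.1 in R 4.3.3 (4 groups, 4 residual degrees of freedom, eBayes). Benjamini-Hochberg adjustment ran over all probe sets of each of 6 comparisons. The fit was tested on simulated data with the same spread on every array. Those data hold no deviating array, so the test does not cover the effect of control array 1.

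Genes were named from GEO's platform annotation (19572 probe sets with 1 symbol, 2634 with none), and all 50 members matched RefSeq by gene ID. No protein sequence was used here, so class was taken from the family number and the composition was not checked. The members and the gene lists were chosen with earlier results of these data known. Named with values were the brightest member of each family, members at the study's thresholds whose groups do not overlap, the 3 largest and 3 smallest ranges, and list genes at the thresholds. Others are named because they belong to a family described in full. The antigenomic probe sets numbered 23. Where the dimmer group had no array above background, a fold is a lower bound. It was set per array against the higher of that array's background median and the probe set's own value. Promoters come from RefSeq on GRCm38.p6. Alternatives were quantile normalization, a common median, brighter probe sets only, eBayes with trend and robust, a replicate block, the compared groups alone and each array left out. Added after seeing the data was counting Krtap3-2 and Krtap3-3 once in the correlations and the SD over the members. All other counts and medians hold both.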

Additional observations from a re-analysis of the deposited data

How the results depend on the processing

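The family's median difference changed sign for maslinic acid against control without control array 1 (-0.048) and for tieghemelin against maslinic acid without maslinic acid array 1 (-0.03), and kept its sign under the other alternatives tried. The counts of members at the study's thresholds depended on the fit. Against control, minoxidil had 7 with brighter probe sets only and 3 with the compared groups alone, tieghemelin had 3 with the compared groups alone, and maslinic acid had 4 in either case. Tieghemelin against minoxidil had 2 after quantile normalization, 2 with a common median, 2 with trend and robust eBayes, 0 with brighter probe sets only, 0 with the replicate block and 7 with the compared groups alone. Maslinic acid against minoxidil had 2 with trend and robust eBayes and 5 with the compared groups alone. Tieghemelin against maslinic acid had 1 after quantile normalization, 0 with brighter probe sets only and 0 with the replicate block.

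When single arrays were left out, the median differences from control ranged between 0.015 and 1.59 for minoxidil, 0.005 and 1.36 for tieghemelin, and -0.048 and 1.32 for maslinic acid. The lowest came without control array 1 and the highest without control array 2. The median was between -0.21 and -0.15 for tieghemelin against minoxidil, between -0.22 and -0.090 for maslinic acid against minoxidil, and between -0.03 and 0.10 for tieghemelin against maslinic acid. In the order of comparisons above, counts at the thresholds ranged over 5 to 35, 2 to 34, 2 to 36, 0 to 7, 0 to 7 and 0 to 3. Counts of adjusted p under 0.05 ranged over 0 to 33, 0 to 32 and 0 to 31 against control, and were 0 in the other comparisons. For the named genes, 75 of the fits with an array left out took a gene below the study's thresholds and 117 did not, and 22 and 114 did under the other alternatives. The cause was not tested. Against control, the threshold counts over all probe sets were lowest and highest with the same arrays left out as those of the members. Counts of adjusted p under 0.05 over all probe sets were likewise highest without control array 2. The count ranges against control therefore do not describe the family alone.

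The replicate numbers were not treated as pairs: deviations of same-numbered arrays correlated between -0.17 and 0.09, and the block left the other threshold counts within 1.5 times their values. Values below background, and 2 arrays a group, limit what these comparisons can show.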
